A study of Homo sapiens with 6 samples.

Results

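The genes described here are 8 voltage-gated sodium channel genes among the 58051 Ensembl genes counted in A172 cells: the pore-forming alpha subunit genes SCN1A, SCN2A, SCN3A, SCN8A and SCN9A, and the auxiliary beta subunit genes SCN2B, SCN3B and SCN4B. They were taken as a list by gene name. A172 is a human cell line established from a glioblastoma. One set of A172 cells stably expressed RBFOX1 from a lentiviral plasmid, and the control set stably expressed GFP from the matching plasmid, with 3 biological replicates of each. All cells therefore had gone through lentiviral transduction with polybrene, and whether the stable lines were pools or single clones is not given in the sources used here. Nor do they say whether the replicates were separate transductions or cultures of the same line. In the latter case, differences between the lines and effects of RBFOX1 could not be told apart. The series asks what supplying RBFOX1, an RNA-binding protein of neurons that recognises the letters TGCATG, does to the RNA of glioblastoma cells. For the sodium channel genes the questions are which of them A172 cells express and how each level differs between RBFOX1 and GFP cells.

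Voltage-gated sodium channels open when the membrane depolarises and let sodium ions into the cell, which produces the rising phase of the action potential in neurons and in muscle. The alpha subunit forms the pore, the voltage sensors and the inactivation gate, while beta subunits are small membrane proteins with an immunoglobulin-like domain that modify gating and take part in cell adhesion. Among the alpha subunits, SCN1A is prominent in inhibitory interneurons, SCN2A in excitatory neurons, SCN3A in the embryonic brain, SCN8A at the axon initial segment and nodes of Ranvier, and SCN9A in nociceptive sensory neurons. RBFOX proteins are best known for regulating alternative splicing, and they also bind 3' UTRs.

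RBFOX1 itself had 4, 0 and 1 counts in the GFP replicates and 10276, 16467 and 21451 in the RBFOX1 replicates, as the labels state. RNA of the family member RBFOX2 was already abundant without added RBFOX1: GFP libraries 1, 2 and 3 stood at 2539, 2616 and 2494 after normalization. RBFOX1 libraries stood slightly lower, at 2113, 2109 and 2231 (log2 fold change -0.24, adjusted p = 0.000347 with edgeR). Control cells therefore did not lack RBFOX RNA, and the part of RBFOX2 in the sodium channel results was not tested. Total counts on genes ran from 7433414 to 23249221 per library, the lowest in RBFOX1 replicate 1 and the highest in GFP replicate 1. In these bulk libraries, fewer cells that express a gene and less of its RNA per cell cannot be told apart. Markers of glioblastoma cells were present throughout, with VIM, CD44, SOX9 and FN1 lower and NES, PDGFRB and CHI3L1 higher in RBFOX1 cells, and their summed level was 82468 to 83334 normalized counts in GFP and 56041 to 56755 in RBFOX1 libraries. Of 6 astrocyte markers, 1 (SLC1A2) was higher, AQP4 was at 0, GFAP had at most 4 counts in a library, and the summed level was at most 14.4 normalized counts. Of 10 neuronal markers, NEFL, STMN2 and GAP43 were higher and SYT1 was lower, with a summed level of 5115 to 5554 in GFP and 17943 to 19927 in RBFOX1 libraries. Of the same list, RBFOX3, SNAP25, NEFM, ELAVL3 and ELAVL4 had 3 counts or fewer in every library. SYN1 had at most 8 counts and did not pass the threshold (adjusted p = 0.204 with edgeR). Of 5 muscle markers, 2 were higher (summed level 107 to 118 against 209 to 223), MYOD1 had no count and MYOG had at most 2. The oligodendrocyte lineage list (7 genes) had 2 higher and 2 lower, with OLIG1 and MOG at 0, and summed to 2928 to 3293 against 2105 to 2587. The microglia and blood list (4 genes) had 2 higher and summed to 27.4 to 41.3 against 94.1 to 99.8, with AIF1 at 0. The part of these marker differences in the sodium channel results was not tested.

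Of the 8 sodium channel genes, SCN9A and SCN8A were expressed well in A172 cells, SCN2A at a low level, SCN3A at a low level in RBFOX1 cells, and SCN1A and the 3 beta subunit genes near or below the limit of detection. The alpha subunit transcripts moved in opposite directions. SCN9A and SCN8A, the most abundant, fell in RBFOX1 cells, and SCN2A, SCN3A and SCN1A rose. Of the 6 members that reached 10 counts over all libraries and could be tested, 3 rose and 2 fell with adjusted p-values below 0.05 (quasi-likelihood test of edgeR, adjusted over all genes tested). Over all 20536 genes tested, 23.7% were called higher and 22.9% lower. The normalized counts of the groups did not overlap in any of the 6 tested members, compared with 53.4% of all genes tested. In SCN3B they missed each other only narrowly, with 1.82 as the lowest GFP and 1.81 as the highest RBFOX1 value. The remaining members, SCN2B and SCN4B, had too few counts to be tested.

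**Figure D1:**
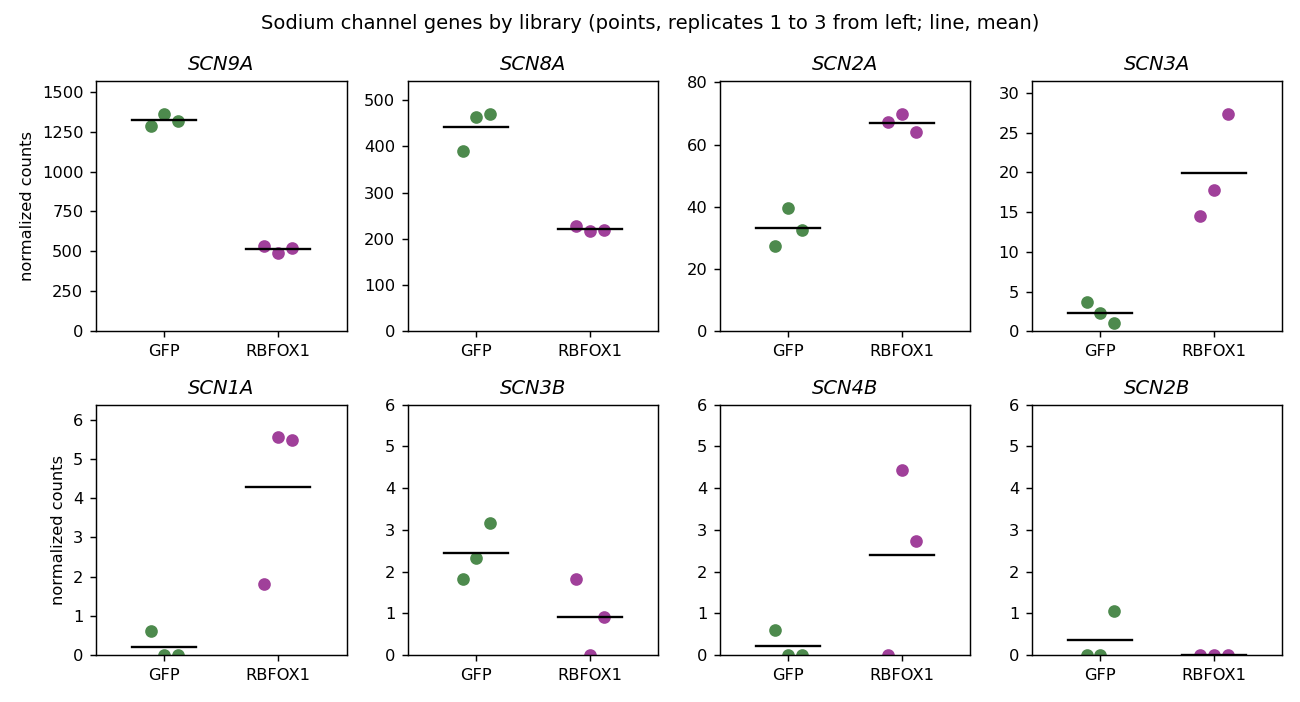
Normalized counts (vertical axis, starting at 0, with a scale of its own in each panel) of the 8 sodium channel genes in the 3 GFP and 3 RBFOX1 libraries, with 1 point per library and a line at the mean. SCN9A and SCN8A lie lower in every RBFOX1 library, SCN2A and SCN3A lie higher, and the other 4 genes stay below 6 normalized counts.

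SCN9A (ENSG00000169432, chromosome 2 of GRCh38, 166195185 to 166376001, minus strand) was the most abundant of the 8 genes in both conditions. GFP replicates 1, 2 and 3 held 2118, 1167 and 1249 of its counts, and the RBFOX1 replicates 295, 440 and 568. After normalization for depth and composition these were 1286, 1363 and 1316 against 535, 489 and 519 normalized counts, so that the lowest GFP library stood well above the highest RBFOX1 library. Its mean was 1321 ± 38.8 in GFP cells and 514 ± 23.6 in RBFOX1 cells (± SD, n = 3 each). The fitted log2 fold change was -1.36 with a standard error of 0.0609 (adjusted p = 3.09e-13), which is 2.57-fold lower. Each RBFOX1 library was lower than the GFP mean by a similar amount, with log2 differences of -1.30, -1.44 and -1.35.

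SCN8A (ENSG00000196876, chromosome 12, 51590266 to 51812864, plus strand) came next. Its counts were 641, 397 and 447 in GFP and 125, 196 and 240 in RBFOX1 cells, or 389, 464 and 471 against 227, 218 and 219 normalized counts. GFP replicate 1 was the lowest of the control libraries, and the RBFOX1 libraries lay close together below it. Its mean went down from 441 ± 45.3 to 221 ± 4.88 (± SD, n = 3 each), a fitted log2 fold change of -0.99 with a standard error of 0.0906 (adjusted p = 1.75e-08).

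SCN2A (ENSG00000136531, chromosome 2, 165194993 to 165392310, plus strand) was measured from far fewer reads. Its counts were 45, 34 and 31 in the GFP libraries and 37, 63 and 70 in the RBFOX1 libraries, and the raw counts overlapped because the libraries differed in depth. Normalized, the values were 27.3, 39.7 and 32.7 against 67.1, 69.9 and 63.9, and the groups no longer overlapped. Its mean went up from 33.2 ± 6.21 to 67.0 ± 3.02 (± SD, n = 3 each), a fitted log2 fold change of 1.05 with a standard error of 0.180 (adjusted p = 6.25e-05). The 3 RBFOX1 libraries stood 1.01, 1.07 and 0.94 log2 units over the GFP mean.

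SCN3A (ENSG00000153253, chromosome 2, 165087526 to 165204050, minus strand) was covered by 6, 2 and 1 reads in the GFP libraries and by 8, 16 and 30 in the RBFOX1 libraries. On the normalized scale this was 3.64, 2.34 and 1.05 against 14.5, 17.8 and 27.4. Every RBFOX1 library was above every GFP library, and the spread among the RBFOX1 libraries was wide. The fitted log2 fold change was 2.96 with a standard error of 0.445 (adjusted p = 1.38e-05). The ratio of counts summed over the libraries and scaled for depth was 8.13, with an exact 95% counting interval of 3.98 to 18.7. Without GFP replicate 1, which holds 6 of the 9 control counts, the log2 fold change was 3.56 (adjusted p = 1.75e-05).

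SCN1A (ENSG00000144285, chromosome 2, 165984641 to 166149214, minus strand) was covered by 1, 0 and 0 reads in the GFP libraries and by 1, 5 and 6 in the RBFOX1 libraries. It passed the threshold (adjusted p = 0.00449 with edgeR) on 13 counts in all, and it did not with DESeq2 (adjusted p = 0.0547). The ratio of summed counts was 16.3, with an exact 95% counting interval of 2.41 to 695. Without RBFOX1 replicate 2 or 3 the gene had too few counts to be tested.

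The beta subunit genes of the list gave next to no reads. SCN3B (ENSG00000166257, chromosome 11, 123629187 to 123655244) had 3, 2 and 3 counts in the GFP libraries against 1, 0 and 1, no library exceeded 3 counts, and the difference did not pass the threshold (adjusted p = 0.249). SCN4B (ENSG00000177098, chromosome 11, 118133377 to 118152888) had 1, 0 and 0 counts against 0, 4 and 3 counts, a ratio of 9.49 with an exact 95% counting interval of 1.22 to 428, on 8 counts in all. SCN2B (ENSG00000149575, chromosome 11, 118162806 to 118176639) had a single count, in GFP replicate 3. A count of 0 still allows 3 counts in a library, which were worth 1.82 normalized counts in the deepest and 5.44 in the shallowest library, so SCN2B and SCN3B, with at most 3 counts in every library, were not detectable above that limit. SCN4B exceeded it in RBFOX1 replicate 2 alone, with 4 counts. Such intervals and limits cover counting error only.

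Per kilobase of annotated exon, which allows levels of different genes to be compared, SCN9A stood at 94.8 ± 2.78 and SCN8A at 23.2 ± 2.38 normalized counts per kilobase in GFP cells (SD, n = 3 each). SCN2A followed at 1.38 ± 0.258. The ranges of these 3 genes did not touch. SCN3B, SCN3A, SCN2B, SCN4B and SCN1A came below with means from 0.243 down to 0.0107, and neighbours in that order overlapped, so their order is not established. In RBFOX1 cells the order was SCN9A (36.9 ± 1.69), SCN8A (11.6 ± 0.257), SCN2A (2.78 ± 0.125) and SCN3A (1.72 ± 0.579), again without overlap between neighbours. SCN4B, SCN1A, SCN3B and SCN2B followed in RBFOX1 cells with overlapping ranges.

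Ratios of counts within a library do not depend on normalization between libraries. SCN9A had 34.3 to 47.1 times the counts of SCN2A in GFP libraries and 6.98 to 8.11 times in RBFOX1 libraries. SCN8A had 11.7 to 14.4 times the counts of SCN2A in GFP and 3.11 to 3.43 times in RBFOX1 libraries. Between the genes that fell, SCN9A had 2.79 to 3.30 times the counts of SCN8A in GFP and 2.24 to 2.37 times in RBFOX1 libraries. None of these ranges overlapped between the conditions.

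Among alpha subunit genes that are not members, SCN4A of skeletal muscle, SCN7A, and SCN10A and SCN11A of sensory neurons had at most 6 counts in a library.

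Summed over the 5 alpha subunit genes of the list, the level was 114, 124 and 121 normalized counts per kilobase in the GFP libraries and 54.4, 51.2 and 54.0 in the RBFOX1 libraries. The sum holds these 5 genes and is not the total alpha subunit RNA of the cells. SCN9A made up 79.3 ± 1.32% of it in GFP cells but 69.2 ± 1.10% after RBFOX1 expression (± SD, n = 3 each). SCN8A, which fell less than SCN9A, made up 19.4 ± 1.33% and 21.9 ± 0.510%. The share of SCN2A was 0.994 to 1.33% in the GFP libraries and 4.91 to 5.67% in the RBFOX1 libraries, and that of SCN3A went from 0.171 ± 0.100% to 3.23 ± 1.06%. For each of these 4 genes the shares of the GFP and RBFOX1 libraries did not overlap. These sums and shares are descriptions without a test. They also depend on the length used, here all annotated exon bases. For SCN2A these are 24087 bases, against 11676 in its longest transcript. The SD covers the spread between libraries and not this choice.

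**Figure D2:**
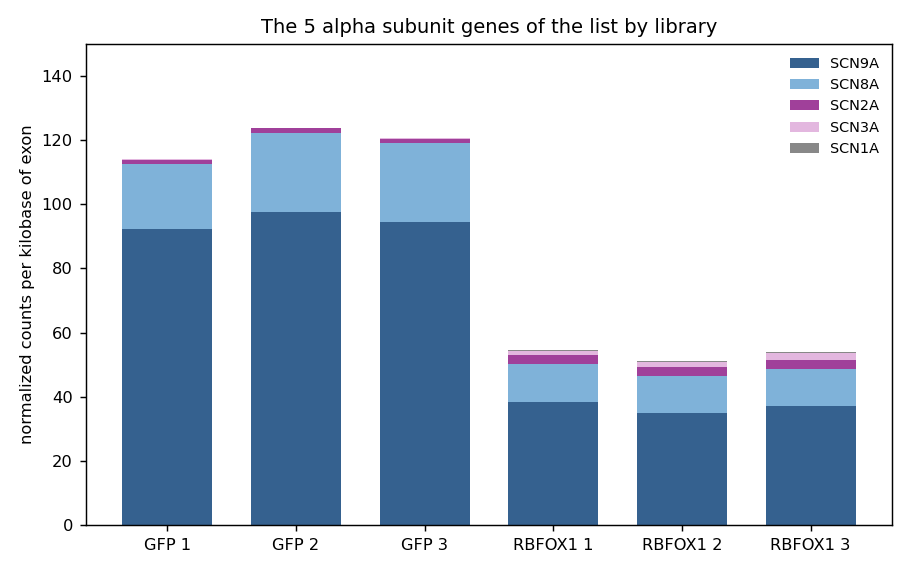
Stacked normalized counts per kilobase of annotated exon (vertical axis, starting at 0) of the 5 alpha subunit genes of the list in each of the 6 libraries, coloured by gene. The dark blue SCN9A part is 94.8 on average in the GFP bars and 36.9 in the RBFOX1 bars, while the purple SCN2A part goes from 1.38 to 2.78.

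Because sodium channel genes are related, reads from one could be counted on another. Of all 100-base stretches in annotated transcripts, 100 bases being the read length, 0.371% in SCN1A, 1.04% in SCN2A, 1.46% in SCN3A and 0.788% in SCN9A occurred identically in a transcript of another gene, and none did in SCN8A, SCN2B, SCN3B or SCN4B. Most of those of SCN2A were shared with the lncRNA gene ENSG00000236283, which lies on the same strand and covers 0.996% of its exonic bases. SCN9A, which fell, and SCN3A, which rose, shared stretches with each other. The opposite-strand gene SCN1A-AS1 shares 11.4% of the exonic bases of SCN9A and 8.61% of those of SCN1A, and it had at most 1 count in a library. ENSG00000236283 also lies opposite to 8.43% of the exonic bases of SCN3A and had at most 2 counts. ENSG00000260122, opposite to SCN8A over 4.71% of its exonic bases, had 1 count in all. The library kit was stranded and the deposited count tables are named as reverse-strand counts, a setting that was not tested here. If it applied, reads of the opposite-strand genes were counted apart from those of the channel genes, but reads in the same-strand overlap of SCN2A and ENSG00000236283 could not be assigned to either.

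The 3' UTRs were searched for TGCATG, letters recognised by RBFOX proteins, on the transcript strand of the canonical GENCODE 44 transcript. Only these exact letters were searched, and shorter or variant forms of the motif were not counted. Matches were found in 7 of the 8 genes. SCN2A had 3 in a 3' UTR of 2480 nucleotides, SCN3A 4 in 2624, SCN1A 6 in 5432 and SCN8A 6 in 5435, while SCN9A had none in 3487 nucleotides. SCN4B had 5 in 3650, SCN3B 1 in 4611 and SCN2B 1 in 4081. Long 3' UTRs often hold the motif: it occurred in 67.2% of the 3' UTRs of at least 2000 nucleotides among the protein-coding genes tested. Within the first 1000 nucleotides, 3 of the 8 genes (SCN1A, SCN3A and SCN8A) held it, compared with 26.2% of the 8089 tested genes with a 3' UTR of that length. The 3 genes that rose all held matches, and of the 2 that fell SCN8A held as many as any member and SCN9A held none. A match describes letters in a window and does not show that the protein binds there. The lack of a match, as in SCN9A, does not show that RBFOX proteins have no site there.

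**Figure D3:**
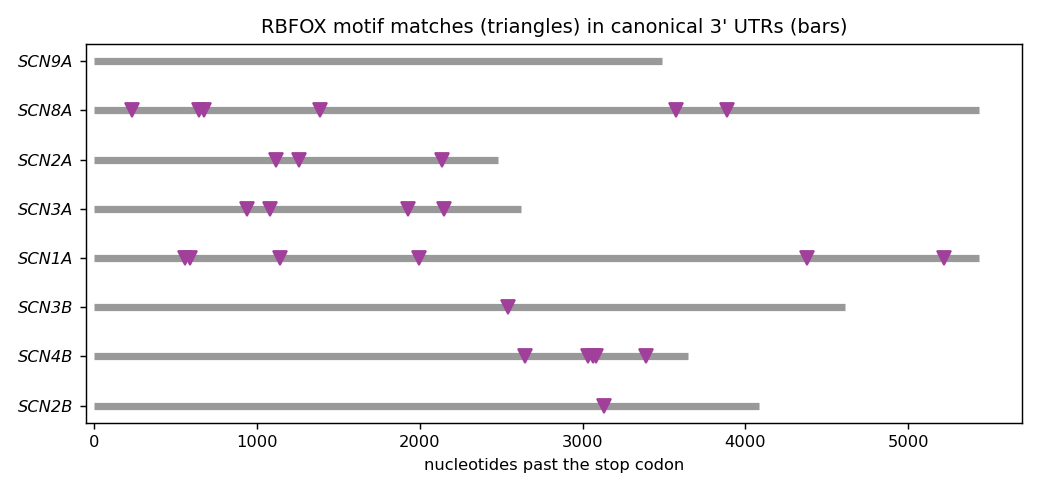
Positions of RBFOX motif matches (triangles) along the canonical 3' UTRs of the 8 genes (grey bars, to scale), with distance from the stop codon in nucleotides on the horizontal axis. SCN9A has no triangle, SCN8A and SCN1A have 6 each, and the first 3 of SCN2A and SCN3A are spaced alike.

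The sites of SCN2A, SCN3A and SCN1A are shown here because the same windows recur in these neighbouring genes on chromosome 2. Each line gives 30 bases of GRCh38 on the transcript strand, 5' to 3', with TGCATG in capitals, and the position counts nucleotides past the stop codon to the first base of the motif. The SCN2A windows are on the plus strand and the SCN3A and SCN1A windows on the minus strand.
SCN2A position 1121 (chr2:165390933-165390962): tttacccagtggTGCATGtttgagcaaaca
SCN3A position 938 (chr2:165089195-165089224): tttatcctgtggTGCATGtttgggcaaata
SCN2A position 1261 (chr2:165391073-165391102): agctgtcactgcTGCATGtttatcttgcct
SCN3A position 1083 (chr2:165089050-165089079): ggctatcactaaTGCATGttaatattgcct
SCN1A position 1143 (chr2:165990085-165990114): ggatgctatcaaTGCATGtttatattacca
SCN2A position 2136 (chr2:165391948-165391977): gtgttggtgaaaTGCATGcaggaaaatgct
SCN3A position 1926 (chr2:165088207-165088236): gtattgaagaacTGCATGcagggaattgct
SCN1A position 1996 (chr2:165989232-165989261): gtattcgtgaacTGCATGctggaaaatgct

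In the first pair, SCN2A and SCN3A shared 26 of 30 bases. In the second group they shared 24, and SCN1A shared 21 with SCN3A and 19 with SCN2A. In the third group SCN2A and SCN1A shared 26, and SCN3A shared 24 with each. The median over all 276 pairs of windows from different members was 12 of 30, of which the motif itself gives 6. All 3 genes of these groups were higher in RBFOX1 cells, SCN1A on few counts. SCN8A, which fell, holds a window at position 3575 that is nearest to the third group. It shared 18 bases with the SCN2A window there, 17 with that of SCN3A and 16 with that of SCN1A.

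SCN8A on chromosome 12, which fell, shares another pair of sites with SCN1A. In both genes the second site starts 30 nucleotides after the first.
SCN8A position 649 (chr12:51808066-51808095, plus strand): gtagaaatgattTGCATGatggcatgccgt
SCN1A position 559 (chr2:165990669-165990698, minus strand): aaagtcgtggttTGCATGagggcatgctgc
SCN8A position 679 (chr12:51808096-51808125, plus strand): gatcagaagtcaTGCATGagatccatacac
SCN1A position 589 (chr2:165990639-165990668, minus strand): acttagagatcaTGCATGagaaaaagtcac

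The first windows of this pair shared 21 of 30 bases and the second shared 20. SCN8A was lower in RBFOX1 cells, and SCN1A was higher on 13 counts in all. Whether these sites play a part in either change was not tested.

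Partner genes, as called here, are genes that act with sodium channels, other sodium channel genes and sodium-potassium pump genes. They were grouped by role into 10 lists holding 60 genes, of which 48 were tested. Of these 17 rose and 14 fell with adjusted p-values below 0.05. Over all genes tested, 23.7% were called higher and 22.9% lower, and the counts in each list below are to be read beside these shares. The median log2 fold change of the 48 was 0.12, compared with 0.0051 over all genes tested.

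Fibroblast growth factor homologous factors bind the intracellular tail of alpha subunits and modulate inactivation. Of these 4 genes, 2 were tested and both were lower. FGF12 went from 129 ± 20.5 to 77.4 ± 4.36 (± SD, n = 3 each; log2 fold change -0.71, adjusted p = 0.000250). FGF14 had a log2 fold change of -0.66 (adjusted p = 0.0121), its groups overlapped, and it did not pass the threshold without GFP replicate 1 (0.0654), without RBFOX1 replicate 3 (0.0810) or with DESeq2 (0.0984). FGF11 and FGF13 had 3 counts or fewer in every library.

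Ankyrins and cell adhesion molecules hold sodium channels at the axon initial segment and nodes. Of these 8 genes, 7 were tested, 2 were higher and 3 lower. ANK3, which encodes ankyrin-G, the anchor of sodium channels at the initial segment, rose from 651 ± 67.7 to 1177 ± 36.0 on the normalized scale (± SD, n = 3 each; log2 fold change 0.86, adjusted p = 3.04e-09). NRCAM rose by 0.98 on the log2 scale (adjusted p = 0.00396) from 16.6 ± 1.87 to 33.8 ± 10.0 normalized counts. NFASC, the neurofascin gene, fell from 863 ± 42.7 to 597 ± 19.0 (log2 fold change -0.53, adjusted p = 6.85e-07), and L1CAM had a log2 fold change of -0.28 (adjusted p = 0.00336) with overlapping groups.

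Of the 11 genes for turnover and cytoplasmic partners, 10 were tested, 3 were higher and 4 lower. PRRT2, a presynaptic protein known to interact with neuronal sodium channels, rose from 16.5 ± 2.48 to 58.1 ± 5.16 on the normalized scale (± SD, n = 3 each; log2 fold change 1.80, adjusted p = 4.28e-07). Calmodulin binds the tail of alpha subunits and is encoded by separate genes that give the same protein. CALM2 rose by 0.51 and CALM3 by 0.72 on the log2 scale (adjusted p = 1.99e-08 and 1.52e-09). The ubiquitin ligase genes NEDD4 and NEDD4L, which act in channel turnover, had log2 fold changes of 0.084 and 0.021 (adjusted p = 0.150 and 0.876). Of the 3 protease genes whose products cleave beta subunits, PSEN2 fell by 0.24 on the log2 scale (adjusted p = 0.00795) and none rose. BACE1 had a log2 fold change of 0.10 (adjusted p = 0.327).

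REST represses neuronal genes, SCN2A among them, in non-neuronal cells, and it works with corepressors. All 8 genes of this list were tested, 4 were higher and 2 lower. RCOR1, which encodes the corepressor CoREST, rose from 265 ± 11.9 to 616 ± 20.1 on the normalized scale (± SD, n = 3 each; log2 fold change 1.21, adjusted p = 2.91e-11). REST itself, named after its values were seen, rose from 1996 ± 150 to 2414 ± 69.8 (log2 fold change 0.28, adjusted p = 0.000397). SIN3A rose by 0.29 on the log2 scale (adjusted p = 0.00544), whereas HDAC1 fell by 0.33 (adjusted p = 0.000244) and CTDSP1 by 0.34 (adjusted p = 4.47e-05). HDAC2, also named after its values were seen, rose by 0.26 on the log2 scale (adjusted p = 0.00532).

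NALCN, a related pore-forming subunit, carries the background sodium leak that helps to set the resting potential. Its reads numbered 245, 147 and 146 in the GFP libraries and 18, 17 and 33 in the RBFOX1 libraries. The fitted log2 fold change was -2.55 with a standard error of 0.168 (adjusted p = 1.19e-10), which is 5.85-fold lower. All 3 RBFOX1 libraries lay far below the GFP libraries. Its partners UNC79, UNC80 and NALF1 did not pass the threshold, with adjusted p-values of 0.454, 0.0772 and 0.0653, and NALF2 had no count.

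Of 8 epithelial and acid-sensing sodium channel genes, 5 were tested and 2 were higher. ASIC1, a proton-gated channel of neurons, rose from 55.9 ± 13.5 to 101 ± 17.0 on the normalized scale (± SD, n = 3 each; log2 fold change 0.90, adjusted p = 0.000275). SCNN1A rose from 4, 0 and 3 to 3, 11 and 8 counts (log2 fold change 2.03, adjusted p = 0.0105), but not with DESeq2 (adjusted p = 0.0695) or without RBFOX1 replicate 2 (0.0791).

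The sodium-potassium pump exports the sodium that channels admit. Of its 7 genes, 6 were tested, 4 were higher and 1 was lower. ATP1B1, a beta subunit of the pump, rose by 0.48 on the log2 scale (adjusted p = 1.46e-07). ATP1B2 rose from 4, 2 and 1 to 3, 12 and 8 counts (adjusted p = 0.00492), but did not pass with DESeq2 (0.0531) or without RBFOX1 replicate 2 (0.0519).

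**Figure D4:**
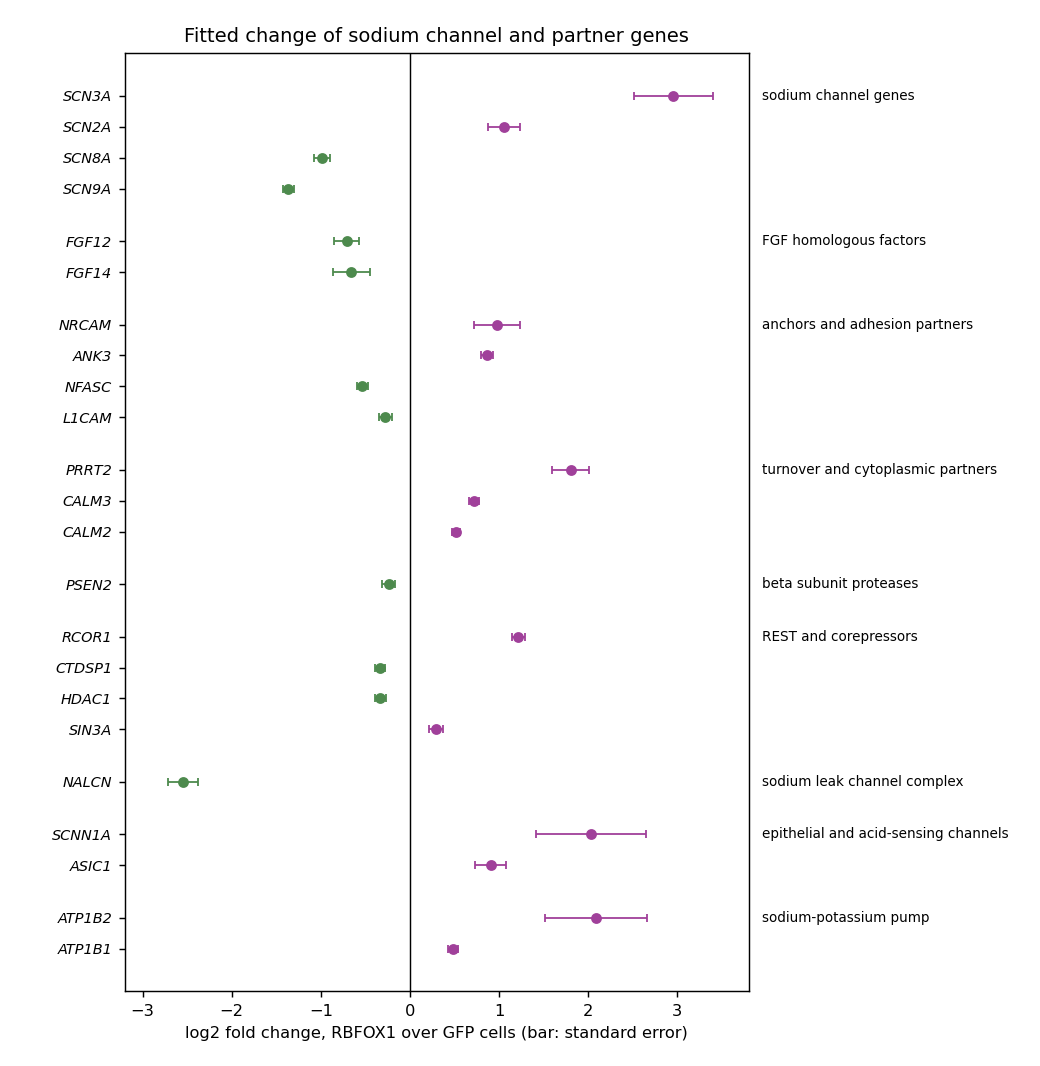
Fitted log2 fold change of RBFOX1 over GFP cells (horizontal axis) with its standard error (bar) for 4 members and for partner genes named by rule, grouped by role. Purple points are higher and green points lower in RBFOX1 cells, with SCN3A at 2.96 and NALCN at -2.55 at the ends.

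Among 11068 protein-coding genes with a mean of at least 50 normalized counts, those whose log2 level over the 6 libraries correlated best with SCN9A included PAPPA2 and EXTL3, with Pearson's r of at least 0.9997. For SCN8A these were NFE2L1, PARD6B and EDEM1 (at least 0.9989), and for SCN2A they were LGALS9, PNMA1 and ZNF260 (at least 0.9977). An r above 0.99 was reached by 480 genes for SCN9A, 167 for SCN8A and 61 for SCN2A. The 6 points are 3 libraries of each of 2 conditions, and all genes share them.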

How the data were processed

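RNA from 3 GFP and 3 RBFOX1 libraries of A172 cells (rRNA-depleted, stranded, paired-end) was quantified per Ensembl gene. The authors aligned reads to GRCh38 with HISAT2 and deposited raw counts per gene from HTSeq-count in intersection-strict mode, which leaves out reads reaching beyond annotated exons. The summary lines for reads not assigned to a single gene, 38.1 to 48.0% of all, were left out. A deposited table of the authors' own DESeq2 comparison (fold changes and p-values) was not used.

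Counts were TMM-normalized, and RBFOX1 was compared with GFP by the two-sided quasi-likelihood F-test of edgeR 4.0.16 under R 4.3.3, with Benjamini-Hochberg adjustment over the 20536 genes with at least 10 summed counts. Standard errors are the log2 fold change over the square root of F. Normalized counts are scaled to the mean effective library size. The fit was tested on simulated data, in which the changed genes had a mean of at least 50 counts and all genes the same spread. That does not cover members with few counts, such as SCN1A and SCN3A. DESeq2 (1.42.0), limma-voom (3.58.1), other scalings and filters, a replicate block and leaving out each library were alternatives. P-values set the difference between the groups against the spread between these libraries.

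Symbols, exons and 3' UTRs came from GENCODE 44 on GRCh38, a later annotation than that used for counting, and 98.1% of identifiers matched. Partner genes were named as the up to 4 called genes of each list with the largest absolute log2 fold change, and the 3 best correlated genes of each called member with a mean of at least 50 normalized counts. The members and lists were chosen with earlier results of these data known. Some genes that this rule names are not reported here.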

Additional observations from a re-analysis of the deposited data

How the results depend on the processing

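The log2 fold changes of SCN9A (-1.38 to -1.31), SCN8A (-1.08 to -0.93), SCN2A (0.89 to 1.17) and SCN3A (2.61 to 3.56) kept their direction and passed the threshold in all 13 alternatives. SCN1A was tested in 10 of them and passed in 9, the exception being DESeq2; it was not tested with edgeR's filterByExpr or without RBFOX1 replicate 2 or 3. SCN3B passed in none of 7. Across the alternatives, 2 or 3 of the 8 genes were called higher and 2 lower, and of the partner genes 13 to 20 were higher and 12 to 14 lower. Log2 fold changes were recomputed for RBFOX1, the members and the partner genes named by rule. Genes named outside that rule, REST, HDAC2 and RBFOX2 among them, were not recomputed. Of the recomputed values, 377 kept their direction and call and 15 lost the call, among them those given beside SCN1A, FGF14, SCNN1A and ATP1B2. None reversed. The order per kilobase in GFP cells was the same for all 8 genes with the longest transcript as length. Searching whole 3' UTRs found TGCATG in 7 genes in place of 3, since the windows are longer.

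Whether libraries with the same replicate number were handled together is not given in the sources used here. The deviations of same-numbered libraries from their group means correlated at -0.174, 0.0348 and -0.0586. Those of differently numbered libraries ran from -0.161 to 0.181, and with 3 libraries per group these values cannot settle it. With the replicate block, 3 members were higher and 2 lower, and 17 partner genes were higher and 13 lower. Depth limits SCN1A and the beta subunit genes of the list, and gene counts cannot show splicing of these channels.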
